A study of Mus musculus with 7 samples.

Results

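The genes described here are those of the cytosolic ribosomal proteins, chosen by name: protein-coding genes whose symbol begins with Rpl or Rps, without the Rps6k kinases. A total of 39 of them, 27 with an Rpl name and 12 with an Rps name, had a peak in the authors' list of 6395 peaks, out of 91 protein-coding genes that the name rule finds in RefSeq (GRCm38.p6). The list came from T follicular helper (Tfh) cells, which give help to B cells in making antibody. The assay was ATAC-seq, where a transposase inserts sequencing adapters into accessible DNA. All mice were of the lupus-prone strain B6/Sle1.Yaa, which joins the Sle1 susceptibility interval to the Y-linked autoimmune accelerator Yaa, and were 5 months old. They were given an antibody that the labels call anti-IFNA1 (n = 4 samples) or anti-rat IgG (n = 3 samples) 2 times a week for 4 weeks. The series title writes the target as IFNAR1, a chain of the type I interferon receptor. Tfh cells were sorted from spleen as CD4+ CD44+ GITR- cells with low PSGL-1, high CXCR5 and high PD-1, and the labels leave it unstated whether a sample is 1 mouse or a pool.

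The ribosome joins a large and a small subunit, each made of ribosomal RNA and a set of proteins, most of which are needed in equal numbers. The small subunit decodes the messenger RNA, and the large subunit forms the peptide bond. Ribosomal protein genes are housekeeping genes with compact, open promoters in dividing cells. Their transcripts begin with a pyrimidine tract, the TOP element, through which mTOR signalling controls their translation, and GABP, YY1, SP1 and MYC are known at their promoters.

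Every listed peak was called for higher coverage on the anti-IFNA1 side than the IgG background, so a listed gene has, by that rule, a gain at the site, and peaks lower under anti-IFNA1 were not analysed here. The file has no column for a sample, so no spread between mice can be given for any value, and intervals below cover the counting error of pooled fragments only. The caller had scaled the anti-IFNA1 side down by its greater depth, 3.54 times that of the IgG side. Fold is the authors' value, scaled anti-IFNA1 coverage over IgG background with a pseudocount of 1 on both. Of 10 Tfh markers 7 had a listed peak, those without being Cxcr5, Icos and Il21. None of 5 B cell markers, 2 CD8 T cell markers, 2 NK cell markers or 2 Treg markers had one, and 1 of 4 myeloid markers did (Cd14). A marker without a listed peak may still be open on both sides, so these counts do not measure the purity of the sort.

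Ribosomal protein genes were in the list more often than protein-coding genes at large: 39 of 91 (42.9%) had a listed peak, beside 21.1% of all RefSeq protein-coding genes (4613 of 21900). That wider set also counts genes whose promoters are not open in T cells, and the part this plays in the gap was not tested. Genes of the large subunit were listed more often than those of the small subunit, 27 of 56 Rpl names (48.2%) and 12 of 35 Rps names (34.3%). Among genes that encode a protein of the mature ribosome, the counts were 25 of 46 (54.3%) for the large and 11 of 31 (35.5%) for the small subunit. Of 10 paralogues and related genes 3 were listed: Rpl22l1, a paralogue that Rpl22 keeps low, Rpl36al, a paralogue of Rpl36a, and Rps27l, a p53 target related to Rps27. Fau and Rack1, which encode ribosomal proteins under other names, had no listed peak.

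**Figure D1:**
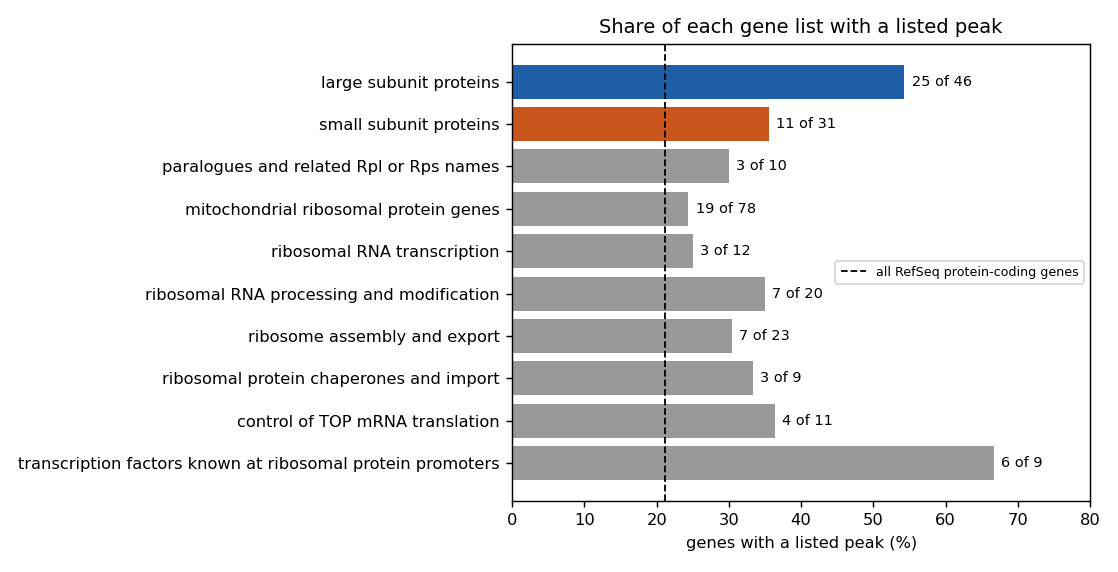
Share of genes with a listed peak (horizontal axis, percent) in each gene list, with the count beside each bar; the dashed line is the 21.1% of all RefSeq protein-coding genes. The large subunit stands at 54.3%, the small subunit at 35.5% and the mitochondrial ribosome at 24.4%.

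The 39 members had 1 peak each, all in the TSS section of the authors' annotation, on 16 chromosomes. RefSeq promoter sequences (GRCm38.p6, the build of the peaks, mm10) were found for 30 of the 39. Stretches of 250 bases, 220 before the start and 30 from the start on, are shown for 7 members. Rpl6 and Rpl14 had the highest folds of the large subunit among genes with a promoter entry, and Rps15 the highest of the small subunit. Rpl27a, Rpl38, Rps7 and Rps19 are the members with a match to the ISRE, the element bound by interferon-activated factors, and are shown because the treatment was aimed at interferon signalling. Capitals mark matches on either strand to the ETS core CCGGAAG, bound by GABP, to the YY1 motif AAGATGG, to the TCT initiator CTCTTTCC, to the NRF1 motif (GCGCA, any base, GCGC) and to the ISRE (GAAA, any 2 bases, GAAA).
Rpl6 (chr5:121204281-121204530, plus strand): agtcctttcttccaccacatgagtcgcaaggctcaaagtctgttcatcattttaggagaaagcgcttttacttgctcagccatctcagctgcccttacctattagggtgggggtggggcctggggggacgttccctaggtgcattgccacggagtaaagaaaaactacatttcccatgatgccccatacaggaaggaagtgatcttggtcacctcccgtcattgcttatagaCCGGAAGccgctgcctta
Rpl14 (chr9:120571297-120571546, plus strand): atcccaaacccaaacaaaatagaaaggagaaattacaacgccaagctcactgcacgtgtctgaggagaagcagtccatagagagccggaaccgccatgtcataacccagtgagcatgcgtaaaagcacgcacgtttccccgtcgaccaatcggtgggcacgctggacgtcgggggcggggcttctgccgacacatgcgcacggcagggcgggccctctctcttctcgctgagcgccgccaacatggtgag
Rps15 (chr10:80292211-80292460, plus strand): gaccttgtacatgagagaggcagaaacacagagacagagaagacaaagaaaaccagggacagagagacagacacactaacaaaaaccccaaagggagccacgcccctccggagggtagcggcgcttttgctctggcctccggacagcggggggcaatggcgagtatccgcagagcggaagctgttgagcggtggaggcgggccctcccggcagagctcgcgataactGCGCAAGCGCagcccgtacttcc
Rpl27a (chr7:109518975-109519224, plus strand): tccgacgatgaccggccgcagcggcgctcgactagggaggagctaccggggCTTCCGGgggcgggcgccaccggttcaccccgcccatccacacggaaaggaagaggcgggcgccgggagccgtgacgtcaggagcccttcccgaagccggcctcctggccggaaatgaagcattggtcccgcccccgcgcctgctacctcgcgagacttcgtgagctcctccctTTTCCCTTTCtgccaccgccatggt
Rpl38 (chr11:114668360-114668609, plus strand): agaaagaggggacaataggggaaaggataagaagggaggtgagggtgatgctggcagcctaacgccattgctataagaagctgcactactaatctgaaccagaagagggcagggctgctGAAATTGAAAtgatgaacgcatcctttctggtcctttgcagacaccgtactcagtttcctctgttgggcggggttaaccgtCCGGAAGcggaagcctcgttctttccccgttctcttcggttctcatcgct
Rps7 (chr12:28635924-28636173, minus strand): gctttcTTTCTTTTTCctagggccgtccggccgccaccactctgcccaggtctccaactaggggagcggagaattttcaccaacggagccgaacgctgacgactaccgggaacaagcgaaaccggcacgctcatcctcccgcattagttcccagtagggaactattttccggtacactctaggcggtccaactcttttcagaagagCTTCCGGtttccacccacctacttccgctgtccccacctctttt
Rps19 (chr7:24884372-24884621, plus strand): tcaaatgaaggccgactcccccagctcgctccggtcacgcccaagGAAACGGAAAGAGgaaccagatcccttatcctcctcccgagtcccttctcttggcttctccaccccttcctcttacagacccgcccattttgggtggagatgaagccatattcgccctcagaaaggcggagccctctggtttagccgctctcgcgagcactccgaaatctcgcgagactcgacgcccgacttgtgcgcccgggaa
Counted from the start, with negative numbers upstream, the ETS core of Rpl6 began at base 12, that of Rpl38 at base -20 and that of Rps7 at base -14. The NRF1 match of Rps15 began at base 7. Rpl14 held none of the motifs marked in capitals. The ISRE match began at base 5 in Rpl27a, -101 in Rpl38, -175 in Rps19 and -214 in Rps7. Of these matches only that of Rps19 lay inside the listed peak. In Rps19 the ISRE shared 5 bases with a match to the TCT initiator, so the longer run of capitals there covers both.

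The size of the gain at ribosomal protein genes was that of the list as a whole. The median fold was 4.75 over the 39 members, 4.74 over all listed peaks and 4.78 over the 4237 listed TSS peaks of protein-coding genes, and 20 of 39 members lay above the median of the list. Folds of the members ran from 2.58 to 15.9: 4 lay above 8, 26 between 4 and 8 and 9 below 4. Their median coverage was 41 anti-IFNA1 fragments at the summit, as over all listed peaks (41), beside 46 over TSS peaks of protein-coding genes. Their median length of 513 bp lay beside 539 bp over the list and 575 bp over those TSS peaks.

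**Figure D2:**
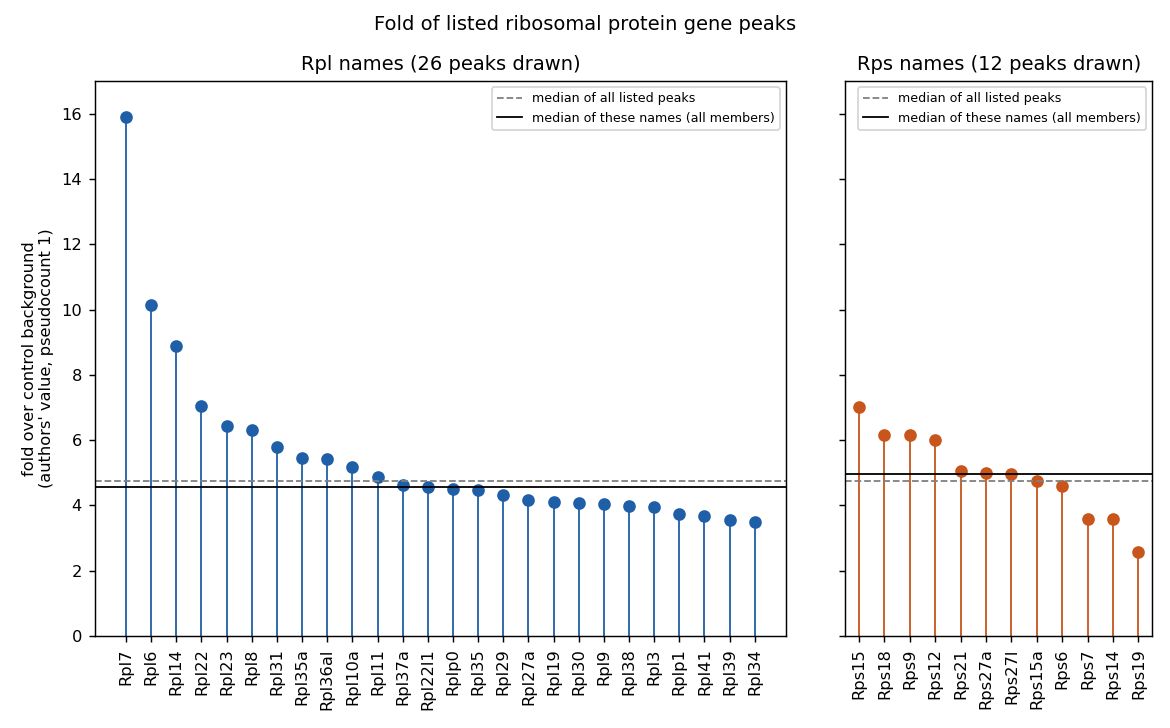
Fold over the IgG background (vertical axis, the authors' values) of listed ribosomal protein gene peaks, Rpl names on the left and Rps names on the right, each point 1 peak with no error since no sample values exist; 38 of the 39 peaks are drawn, and the median lines cover all of them. Rpl7 is drawn highest at 15.9, and the lowest is Rps19 at 2.58.

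The highest folds belonged to large subunit genes and rested on IgG backgrounds under 1 fragment. Rpl7 (chr1:16104398-16106244), a large subunit protein, had a fold of 15.9 from 66 anti-IFNA1 fragments over a background of 0.236 IgG fragments. Rpl6 (chr5:121204202-121205078) had a fold of 10.1 from 37 fragments, and Rpl14 (chr9:120570810-120571816) one of 8.88 from 32. For these genes the background allows no IgG fragment at the site itself, and that of Rpl6 and Rpl14 was the genome rate of 0.132. With 0 IgG fragments at the site, the depth-scaled ratio has only a lower bound, that of its exact 95% interval, which was 4.92 at Rpl7, 2.70 at Rpl6 and 2.31 at Rpl14. The order of the folds is therefore partly an order of backgrounds: Rpl6 and Rpl14 had fewer anti-IFNA1 fragments than the median member. Rpl7 ranked 7 by fold and 998 by coverage among the 6395 peaks.

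The lowest folds of the large subunit lay between 3.50 and 3.68, over backgrounds of 1.65 to 3 IgG fragments. Rpl34 had a fold of 3.50 from 46 anti-IFNA1 fragments over 3 IgG fragments, a depth-scaled ratio of 4.33 with an exact 95% interval of 1.39 to 21.8. Rpl39, whose product lines the peptide exit tunnel, had 3.54 from 34 fragments over 2, with a ratio of 4.81 (1.23 to 41.3). Rpl41, the gene of a very short ribosomal protein, had 3.68 from 31 fragments over a background of 1.65. The intervals of Rpl34 and Rpl39 overlap, so the order of these genes is within counting error. Fragment numbers did not follow the folds: Rpl38, needed for translation of certain Hox messenger RNAs, had the most of any Rpl name (67) and a fold of 3.98. The fewest were at Rpl9 (25 fragments, fold 4.03) and Rpl29 (27 fragments, fold 4.32).

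Small subunit genes covered a narrower range of folds. Rps15 (chr10:80292284-80292933), whose product is needed for export of the small subunit precursor, was highest at 7.02, with 26 fragments over a background of 0.189 taken from a 10 kb window. With 0 IgG fragments possible at its site, the lower bound of its depth-scaled ratio was 1.85 (exact 95% interval). Rps18 and Rps9 each had a fold of 6.15 from 40 fragments over 1 IgG fragment, a ratio of 11.3 with an interval of 1.92 to 458. Such an interval leaves the size of the gain almost undefined. Rps7 and Rps14, the gene lost in 5q- syndrome in humans, each had 3.57 from 47 fragments over 3.

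Rps19 (chr7:24884075-24884779), mutated in Diamond-Blackfan anaemia, had the most fragments of all members on both sides. It had 97 anti-IFNA1 fragments and 10 IgG fragments at the site, and the lowest fold, 2.58. The depth-scaled ratio was 2.74 (exact 95% interval 1.43 to 5.90). This was the narrowest relative interval among the members with a known IgG count at the site, and its lower bound lay below those of Rps18 and Rps9. Rps27a, which encodes a ubiquitin fused to a small subunit protein, had 67 fragments over 3, a ratio of 6.31 (2.07 to 31.4) and a fold of 4.99.

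**Figure D3:**
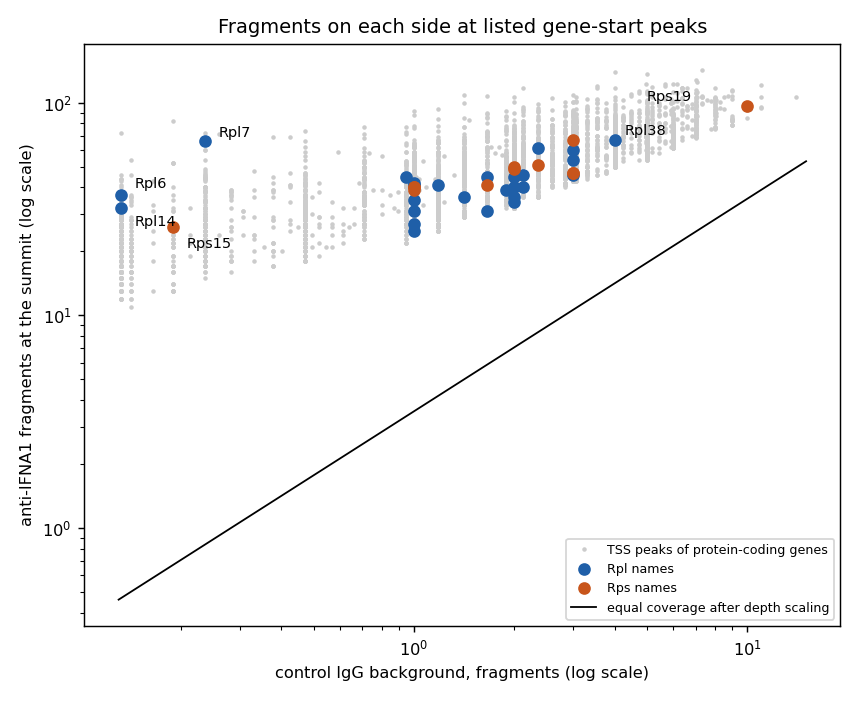
Anti-IFNA1 fragments at the summit (vertical, log scale) against the IgG background in fragments (horizontal, log scale) for 38 of the 39 ribosomal protein gene peaks in colour and for the 4237 listed TSS peaks of protein-coding genes in grey; the line marks equal coverage after scaling by 3.54. All points lie above the line because the list holds only such peaks, and Rpl7, Rpl6, Rpl14 and Rps15 lie to the left, at backgrounds under 0.5.

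Between the subunits the direction of the small difference in fold depended on how it was measured. The median fold was 4.57 over Rpl names and 4.97 over Rps names, a large minus small difference of -0.39. Without the pseudocount, the difference in the median ratio of scaled coverage to the caller's background was 0.22, the other direction. Small subunit peaks were longer (median 642.5 bp beside 481 bp) and had more anti-IFNA1 fragments (median 47 beside 41) over a higher background (median 2 beside 1.65). Among the peaks that reached the list's largest p once IgG noise in the window of the caller was counted, the large minus small difference in median length went from -161.5 to -80 bp and that in median pileup from -1.70 to -0.85. Genes are not replicates of a condition, so no test was made of these differences. Of the Rps names 8 of 12 lay above the list's median fold, and of the Rpl names 12 of 27.

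Most members had a background of at least 1 IgG fragment, though not always one counted at the site. The background was that high for 33 of 39 (84.6%), beside 75.4% of TSS peaks of protein-coding genes and 68.4% of all listed peaks. It was set by the site itself at 22 members (56.4%), beside 41.9% of those TSS peaks and 37.2% of the list. A 1 kb window set it at 14 members, a 10 kb window at 1 and the genome rate at 2. Where a 1 kb window gave at least 1, the IgG count at the site is known only as an upper bound. The caller takes this background as free of error. An exact one-sided conditional binomial test that counts the noise of both sides was therefore set against the largest p of the list, 6.90e-05. With the caller's own window 18 of 39 members (46.2%) reached it, beside 65.5% of TSS peaks of protein-coding genes and 68.7% of all listed peaks. The window itself fixes much of that count: all 17 members with a wider window or the genome rate reached it, as did all 4016 such peaks of the list, and 1 of the 22 members at the site did, beside 376 of 2379 (15.8%).

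Counted at the site alone, 5 members reached the same p, 12.8% beside 20.9% of all listed peaks and 25.6% of TSS peaks of protein-coding genes. They included Rpl7 (exact p = 7.31e-08), Rpl22 (1.36e-05), Rpl36al (2.70e-05) and Rps27a (3.92e-05), named after their values were seen. Rpl22, without which the development of alpha-beta T cells is arrested, had a fold of 7.06 from 45 fragments over a background of 0.944. Rpl36al had 5.43 from 61 fragments over 2.36. Where no IgG fragment was counted at the site, at least 39 anti-IFNA1 fragments are needed to reach that p. Rpl6, Rpl14 and Rps15, among the members of highest fold, had fewer. A site that did not reach it is not shown to be unchanged: the IgG side is too shallow to tell.

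Most peaks lay across the gene start and the rest beside it, as far as 400 bp away at Rpl29. The peak covered the nearest RefSeq start in 25 of 39 members and lay wholly beside it in 14. The median summit was 26 bp downstream, 30 of 39 summits lay within 200 bp of the start, 17 were upstream and 22 downstream. The summit furthest upstream was that of Rpl7 at -514 bp and the furthest downstream that of Rpl29 at 405 bp. For 9 members, among them Rpl7 and Rpl29, the start was taken as the end of the RefSeq gene. Rpl7 also had the longest peak (1846 bp), followed by Rps12 (1067 bp, fold 6.01) and Rpl14 (1006 bp). The shortest were those of Rpl27a (236 bp, the fragment length and so the least the caller can give, fold 4.16), Rpl3 (277 bp, fold 3.94) and Rpl10a (316 bp, fold 5.17).

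**Figure D4:**
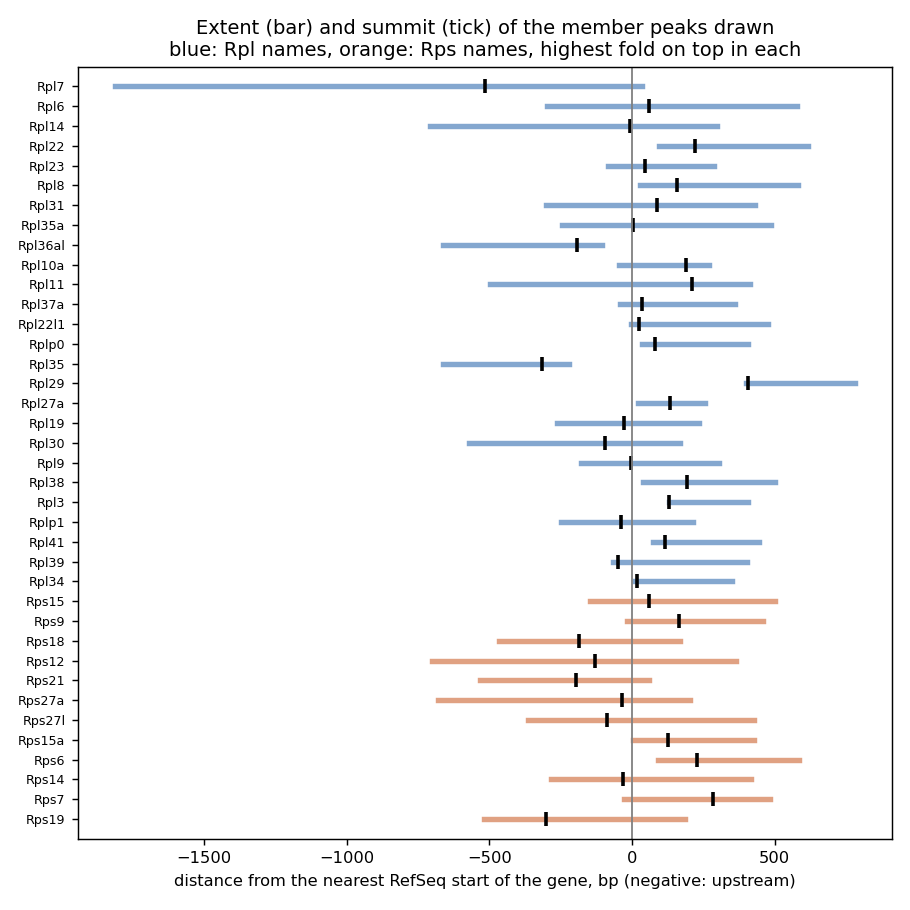
Extent (bar) and summit (tick) of 38 of the 39 ribosomal protein gene peaks along the distance from the nearest RefSeq start of the gene in bp, negative upstream, Rpl names in blue and Rps names in orange with the highest fold on top in each. The peak of Rpl7 reaches 1811 bp upstream, and 25 bars cross the start.

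At 6 members the peak also overlapped another protein-coding gene, so the open region cannot be given to the ribosomal protein gene alone. These were Rpl7 with Rdh10, Rps18 with Vps52, Rpl35a with Iqcg, Rpl36al with Mgat2, Rps27a with Clhc1 and Rpl9 with Lias, named after their positions were seen. The end of Vps52 nearest the Rps18 peak lay 72 bp from its summit and 114 bp from the Rps18 start. Of the 5 members that reached the list's largest p at the site alone, Rpl7, Rpl36al and Rps27a are among these shared regions.

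The 52 genes of the family without a listed peak were 29 Rpl and 23 Rps names, and 41 of them encode proteins of the mature ribosome. The large subunit names were Rpl4, Rpl5, Rpl7a, Rpl7l1, Rpl10, Rpl10l, Rpl12, Rpl13, Rpl13a, Rpl15, Rpl17, Rpl18, Rpl21, Rpl23a, Rpl24, Rpl26, Rpl27, Rpl28, Rpl31-ps12, Rpl32, Rpl32l, Rpl34-ps1, Rpl36, Rpl36a, Rpl37, Rpl37rt, Rpl39l, Rpl3l and Rplp2. The small subunit names included Rps2, Rps3, Rps3a1, Rps4x, Rps10, Rps13, Rps16, Rps19bp1, Rps20, Rps23, Rps23rg1, Rps24, Rps25, Rps26, Rps27, Rps27rt, Rps28, Rps29 and Rpsa. Rps19bp1 has a fitting name but encodes no ribosomal protein. The list splits partner proteins: Rpl11, which binds Mdm2 together with Rpl5, was listed (fold 4.88) and Rpl5 was not, and the stalk proteins Rplp0 (4.49) and Rplp1 (3.73) were listed and Rplp2 was not. These pairs were picked after the list was seen.

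Some genes without a row had a peak at their start under another gene's name. A listed peak lay within 1 kb of the RefSeq start of 5 of the 40 unlisted genes with a promoter entry. The Rps3 start lay in a peak that the file gives to Snord15a (fold 4.20, 41 fragments), and the Rpsa start in one given to Gm24044 (5.59, 36 fragments). The Rpl13 start lay 84 bp from a peak given to Snord68 (3.70, 25 fragments). These are small nucleolar RNA genes. The Rpl4 start lay in a peak given to Zwilch (4.44, 27 fragments) and the Rpl15 start in one given to Nkiras1 (3.20, 53 fragments). A peak that overlaps the Rpl32 gene was given to Snora7a (6.86, 45 fragments). Introns of ribosomal protein genes often carry small nucleolar RNAs: 8 of 39 members (20.5%) and 22 of 52 genes without a row (42.3%) contain at least 1 in RefSeq. Counting every peak within 1 kb of a start whatever its name, 35 of 70 family members with a promoter entry had one. The share was 23.4% of the protein-coding genes with such an entry (4097 of 17492). Under either way of naming a peak the family had about 2 times the share of the protein-coding genes it was set beside.

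The promoters of listed members held the ETS core more often than other promoters. In windows of 250 bases before to 50 after the start, searched on both strands, CCGGAAG was found in 14 of 30 members (46.7%), in 26.2% of the 42 windows of family members without a row, in 8.86% of all 32851 RefSeq windows and in 21.0% of 2580 windows of other protein-coding genes whose start lay inside a listed peak. Member windows were not held to that last rule, and some have a start beside the peak, as at Rpl22 and Rpl38. At Rpl27a, Rpl34, Rpl35, Rpl38, Rpl41 and Rps6 the ETS core itself lay outside the listed peak. Of the 52 genes without a row 41 encode a protein of the mature ribosome, beside 36 of the 39 members. The rest are paralogues and related names, such as Rpl3l and Rps19bp1, and their part in the lower share was not tested. The TCT initiator CTCTTTCC was in 6 of 30 members, 9.52% of those without a row, 3.12% of all windows and 2.87% of other listed starts. In a window from 100 bases before the start it was in 13.3% of the members, 9.52% of those without a row, 1.49% of all windows and 1.24% of other listed starts. None of the member matches lay at the start: they began at base 33 (Rpl6), 32 (Rpl19), -32 (Rpl35a), -65 (Rpl11), -112 (Rps21) and -170 (Rps19). Those of Rps21 and Rps19 were on the opposite strand. In the longer window its core YCTTTY (Y is C or T) was about as frequent in members as in those without a row (78.6%). This core was in 60.5% of all windows and 49.6% of other listed starts. The YY1 motif AAGATGG, again in the longer window, was in 10.0%, 14.3%, 6.34% and 6.82% in the same order. Of the 30 members 18 held at least 1 of CCGGAAG, CTCTTTCC and AAGATGG in that window. A match is a description of letters and not a bound site, and no test was made of these shares.

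The GC and CCAAT boxes were no more frequent in members than in other listed starts. The ISRE was found in few members (4), though at a higher share than in other listed starts. The GC box GGGCGG was in 56.7% of members, 54.8% of those without a row, 35.7% of all windows and 73.6% of other listed starts, and the median GC content of the same windows was 58.5%, 56.0%, 52.7% and 63.3%. The CCAAT box CCAAT was in 36.7% of members, 37.4% of all windows and 39.6% of other listed starts, the TATA box TATAAA in 10.0%, 13.6% and 6.01%, and the NRF1 motif in 10.0%, 4.60% and 13.5%, in the same order. The E box CACGTG, bound by MYC, was in 13.3% of members, 7.15% of all windows and 11.1% of other listed starts. In a window from 100 bases before the start it was in 3.33%, 4.35% and 6.94%, in the same order. The ISRE was in 4 of 30 members (13.3%), 7.14% of those without a row, 3.44% of all windows and 2.02% of other listed starts. In a window from 100 bases before the start the ISRE was in 1 member (3.33%), Rpl27a. It was there in 2.38% of those without a row, 1.46% of all windows and 1.09% of other listed starts. The folds of the 4 were 4.16 (Rpl27a), 3.98 (Rpl38), 3.57 (Rps7) and 2.58 (Rps19), all below the members' median of 4.75. Only the ISRE match of Rps19 lay inside the listed peak whose fold is given. Those of Rpl27a (peak from base 21 to 257), Rpl38 (38 to 500) and Rps7 (-28 to 485) lay outside it. The GAS element TTCCNGGAA, bound by STAT dimers, was in 1 member, Rpl35 (fold 4.48), and in 1.15% of all windows. At Rpl35 it shared 6 bases with an ETS core and lay outside the listed peak, which ran from base -663 to -219. In the shorter window no member held a GAS match.

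**Figure D5:**
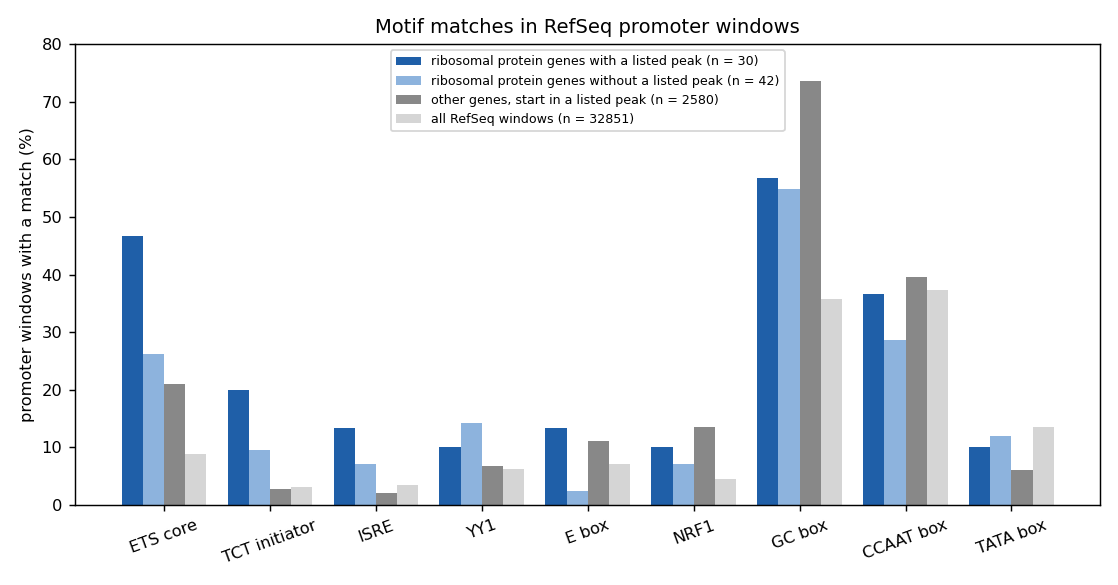
Share of RefSeq promoter windows with a match to each motif (vertical axis, percent) in ribosomal protein genes with and without a listed peak, in other genes whose start lay in a listed peak and in all RefSeq windows. The ETS core stands at 46.7% in listed members and 8.86% in all windows, and the GC box is highest, at 73.6%, in the other listed starts.

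Genes that make or control the ribosome were listed at varied shares, given here beside the 21.1% of all protein-coding genes. Of 78 mitochondrial ribosomal protein genes 19 were listed (24.4%), near the background, with a median fold of 5.16. Of 12 genes of ribosomal RNA transcription 3 were listed, led by Ubtf (fold 6.67), the factor that opens ribosomal DNA, and Polr1b (5.87), a subunit of RNA polymerase I. Of 20 genes of ribosomal RNA processing 7 were listed, led by Nop56 (6.35), a core protein of box C/D particles, and Rrp9 (5.84), which binds the U3 RNA. Of 23 genes of assembly and export 7 were listed, led by Rrs1 (8.71), which helps bring 5S RNA into the large subunit, and Rsl24d1 (7.07). Of 9 chaperone and import genes 3 were listed, led by the import receptors Tnpo1 (5.52) and Ipo7 (4.48). Of 11 genes that control TOP messenger RNA 4 were listed, led by the TOP-binding repressor Larp1 (5.29, in an intron) and Eif4ebp2 (4.57), which restrains cap-dependent translation. Of 9 transcription factors known at ribosomal protein promoters 6 were listed, led by Myc (8.73) and Nrf1 (5.29). These lists are short, and none was tested.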

How the data were processed

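ATAC-seq of 4 anti-IFNA1 and 3 anti-rat IgG samples was used, grouped by the treatment label. The submitters' processing notes name MACS2 2.1.0.20150420, BWA 0.7.9a, bedtools, DESeq2 and DiffBind 2.0.7, with build mm10 and with no role or order given. The authors' deposited table was a list of peaks with no sample column. Per the file headers, the deposited summit signal is the pileup of fragments, which the authors' caller scaled, and the fold enrichment is a ratio over the local background. The headers of 2 further columns were damaged, and their deposited values were read as −log10 p-value and −log10 q-value. The cut-site shift, the treatment of duplicates and the pooling of libraries are not given in the sources used here. Direction was read from peak names and sample titles.

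Pileups were whole multiples of 0.283 (largest gap 0.00497), which gave fragments and the depth ratio. Backgrounds followed from the fold, for a fragment of 236 bp. Depth per sample is unknown. PCR copies are not independent, and ratios are raised because peaks were listed for high coverage. With a background from a window larger than the site, the IgG count at the site was taken as the highest that background allows. Genome-rate peaks were tested against a Poisson mean with no control noise. Tests were tried on simulated counts first. The design named an adjusted p for single peaks, but nearly every listed peak passes it because all were selected on that contrast, so the list's largest raw p was used. It also named fits over samples, which a table without samples does not allow. Reads shared with ribosomal protein pseudogenes were not examined. Python 3.11.15, pandas 2.3.3, numpy 2.4.6, scipy 1.17.1 and matplotlib 3.10.9 were used. Genes were matched to RefSeq by symbol.

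The members, gene lists, markers and motifs were chosen with earlier results of these data known. Named members are, in each subunit, the 3 highest and 3 lowest folds, and, over both, the 3 longest and shortest peaks, the 3 with most and fewest fragments and those without a row, some of which are not reported here. Other lists give counts and their 2 highest folds.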

Additional observations from a re-analysis of the deposited data

How the results depend on the processing

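The count of 39 listed genes fell to 18 when control noise was counted in the caller's window, to 5 at the site alone and to 1 (Rps19) at a pileup of at least 20, which 12.5% of the list reached. Single peaks that passed likewise went from 18 to 5 when the site alone replaced the window. An adjusted p at the site, added after seeing the data, was met by 39 members and 98.7% of the list. The median fold moved to 2.58 at a pileup of at least 20, where only Rps19 is left. The large minus small difference in median fold of -0.39 was -0.086 at q at or below 0.01 and turned positive at 0.44 with the caller's window, 4.84 at the site and 0.22 without the pseudocount. These exact tests leave fewer peaks (14 and 4 with the window, 4 and 1 at the site), and the cause of the other changes was not tested. No large-small value could be had at a pileup of at least 20. Without Rpl7, also added later, the median fold was 4.69. No paired analysis was possible because no column carries a sample, and leaving out replicates was not possible for the same reason.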
